A study of Homo sapiens and Mus musculus with 6 samples.

Results

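The contacts described here join a promoter of mouse embryonic stem cells (mESCs) to a distal *Hin*dIII fragment that was not itself a capture target. They were taken from the list of Promoter Capture Hi-C (CHi-C) calls for mESCs, in which every call pairs a bait, a *Hin*dIII fragment carrying at least one promoter, with an "other end". A call was kept when both fragments lay on one chromosome, their midpoints were less than 1 Mb apart, and the other end carried no bait name and was nowhere listed as a bait. This rule gave 62525 contacts of the 101841 mESC calls, or 61.4%. Many pairs of baits are listed from both of their ends, and with each pair counted once the list held 94150 pairs, of which the contacts made up 66.4%. They started from 12202 of 16265 listed baits and reached 34705 distinct fragments. A bait is listed when it has a call of any kind, so captured promoters without any call are not counted here, and shares of baits refer to listed baits. The farthest contact kept, of the *SNORA17.260* bait, spanned 999.88 kb with a score of 5.12, and the nearest one left out by the distance limit, of *Nkx2-1*, spanned 1000.49 kb with a score of 35.74.

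The cells were J1 mESCs of strain 129S4/SvJae, expanded on irradiated embryonic fibroblasts that were removed at harvest, and chromatin was fixed with formaldehyde. CHi-C was performed on 2 biological replicates, and 1 Hi-C library was made from the same cell type without capture. The deposited list combines both replicates into one set of calls, so no spread between replicates could be computed and no difference below carries a replicate test. Each call has a read count, a mean over replicates rounded to a whole number, and a CHiCAGO score, which sets that count against the background expected at the same distance, with a minimum of 5 in the list. Intervals in the text are 95% intervals (Wilson for shares, order statistics for medians) that cover counting error only, and neighbouring contacts are not independent. Contact calls do not measure expression, so the identity of the cells could not be checked against marker genes.

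In Hi-C, chromatin is cut, ends that lie close together in the nucleus are ligated, and the joined pairs are sequenced; capture then enriches for pairs with a promoter at one end. Distal fragments that contact promoters can carry enhancers, silencers or structural sites. Among the latter, CTCF is a zinc-finger protein that, with cohesin, anchors chromatin loops and binds a consensus that reads differently on each strand, so that every site has a direction.

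The sequences below show CTCF consensus matches within the unbaited other ends. Of the other ends with exactly 1 match, those of the 8 highest-scoring contacts are shown, with 1 contact per bait and a pair of chromosomes left aside. Each line gives the gene of the bait, the mm9 position and strand of the printed window, and the sequence read 5′ to 3′ in the direction of the consensus. Capitals mark the 13-base match and lower case the 15 bases on either side.
*Hoxc5*, chr15:103008779-103008821, minus strand: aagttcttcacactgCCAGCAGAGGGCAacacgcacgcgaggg
*Fev*, chr1:74831222-74831264, plus strand: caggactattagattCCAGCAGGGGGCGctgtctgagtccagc
*Tbx3*, chr5:120890905-120890947, minus strand: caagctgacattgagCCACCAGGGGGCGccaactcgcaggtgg
*Htatip2*, chr7:56871783-56871825, plus strand: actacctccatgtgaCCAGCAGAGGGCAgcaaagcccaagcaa
*Gapdh*, chr6:125087192-125087234, minus strand: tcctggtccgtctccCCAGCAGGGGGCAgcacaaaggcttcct
*Bahd1*, chr2:118526039-118526081, plus strand: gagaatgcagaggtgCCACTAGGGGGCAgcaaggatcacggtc
*Ceacam16*, chr7:20386282-20386324, plus strand: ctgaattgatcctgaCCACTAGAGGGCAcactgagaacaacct
*Slc2a1*, chr4:118677758-118677800, plus strand: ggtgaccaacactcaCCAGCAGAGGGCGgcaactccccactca

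In each line the match reads towards the bait, except in the *Gapdh* contact, where it reads away from it. The *Hoxc5* contact spanned 162.7 kb to the right of its bait with 78 reads and a score of 66.62. That of *Tbx3*, a T-box factor, was the longest of these contacts, at 771 kb to the right with 55 reads and a score of 42.17. The *Gapdh* contact was the shortest, at 30.72 kb to the left of a bait carrying the promoter of the glycolytic enzyme, with 67 reads and a score of 38.24. Each of the 8 except that of *Ceacam16* also fell within a pair of Hi-C bins listed as interacting. Of all contacts with a score of 20 or more, 69.7% did.

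Contacts were first counted by promoter. Most promoters had few of them: the median was 3 per bait with at least one (interval 3 to 3, n = 12202), the mean 5.12 and the upper quartile 6. Of the listed baits, 75.0% had at least 1 unbaited contact and 11.0% had 10 or more. These 1793 baits held 50.9% of all contacts. At the other end of the scale, 3727 baits had exactly 1, and the largest number on a bait was 91. The share of all possible pairs of a listed bait and an unbaited fragment under 1 Mb that were listed was 0.679%.

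**Figure D1:**
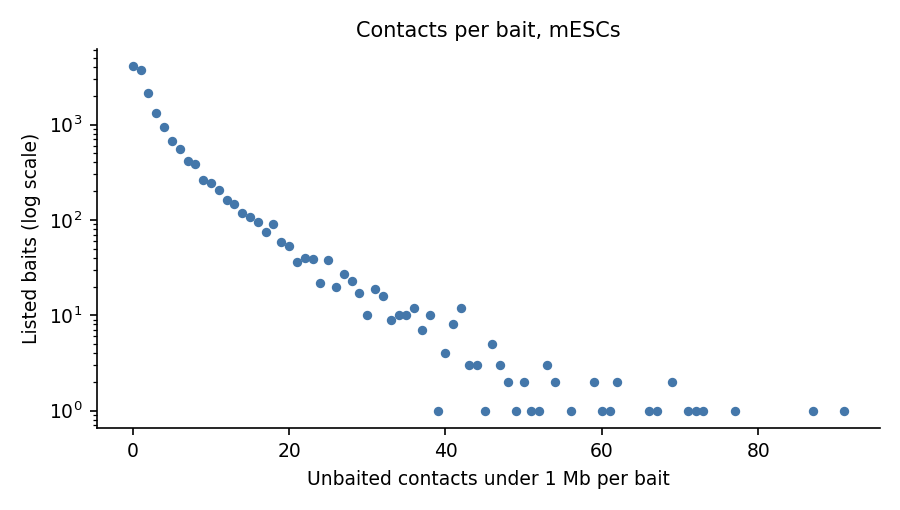
Number of listed mESC baits (log axis) by the number of unbaited contacts under 1 Mb of the bait, baits with none included. The number of baits fell with the number of contacts, with 487 baits at 20 or more, 26 at 50 or more, and a maximum of 91.

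The promoters with the most contacts came from several kinds of genes, and 3 of the first 10 lay in or beside the *Hoxc* cluster. *Itgb1bp1*, which encodes an integrin-binding adaptor, had the most, with 91 contacts in 26 separate blocks (single fragments included), 47 to the left and 44 to the right, none farther than 243.5 kb. These had a median of 7 reads, against 13 over all contacts. A pair of neighbouring baits named for the small nucleolar RNA gene *SNORD121A*, on adjacent fragments, had 87 and 69, and *2410015M20Rik* had 77. *Ankrd56* followed with 69, in 45 separate blocks, and *4930479M11Rik* with 67. *Fev*, an ETS factor of serotonergic neurons, had 66, of which the best, at 85.66 kb within *Wnt10a*, had 128 reads and a score of 99.89. These baits differed in whether the Hi-C library listed the same regions, that is, whether both fragment midpoints fell into an interacting pair of 25-kb bins (FDR under 0.05). None of the contacts of *Itgb1bp1*, *2410015M20Rik*, *Ankrd56* or *4930479M11Rik* lay within an interacting pair of Hi-C bins, compared with 20 of the 66 of *Fev*.

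The baits in or beside the *Hoxc* cluster contacted each other's surroundings. Those of *Hoxc5* and *Hoxc11* carry genes for homeodomain factors that pattern the body axis. *Gm17649* had 73 contacts, *Hoxc5* 72 and *Hoxc11* 71, with 26, 41 and 47 of them within Hi-C pairs. The best contact of *Hoxc5* (chr15:102785403-102788941, 143 reads, score 79.93) was the fragment directly next to the *Hoxc11* bait. In the other direction, the best contact of *Hoxc11* (chr15:102842568-102843783, 103 reads, score 60.25) was the fragment directly next to the *Hoxc5* bait. Both baits were also joined to each other directly by a bait-to-bait call, with a score of 64.34. Because these baits are neighbours, their contacts are repeated views of one locus.

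Groups of genes differed in how often their promoters had 10 or more contacts, against 11.0% for all listed baits. Among developmental transcription factors, which specify tissues and are mostly silent in pluripotent cells, 36 of 95 baits had 10 or more (37.9%, interval 28.8 to 47.9%) and 89 had at least 1. With each stretch of adjacent fragments counted once, the share was 21.1% (interval 14.1 to 30.3%), against 7.24% of all listed baits. Their median was 7 contacts per bait, compared with 2 over all listed baits, those listed with no unbaited contact included. With the *Hox* genes left out the share was 31.8% (interval 22.8 to 42.3%, 85 baits), and among the *Hox* genes it was 9 of 10. *Hoxc8* had 59 contacts, *Zic2* 40 and *Tbx1* 34, examples chosen after their values were seen, whereas *Gata4* had none. Of the contacts of this group, 60.6% lay in stretches of adjacent fragments and 50.3% within Hi-C pairs, compared with 35.6% and 13.4% over all contacts. Over all baits the share in stretches rose with the number of contacts, from 6.0% for baits with 1 to 2 to 57.8% for baits with 20 or more, and the share within Hi-C pairs from 5.02 to 19.3%. The part of contact number in the values of the group was not tested. The bait fragments of the group had a median GC content of 52.8%, compared with 47.7% over all listed baits. The part of base composition in these counts was not tested.

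The chemosensory receptor families were at the other extreme. Olfactory receptor promoters, used in sensory neurons and silent elsewhere, had 10 or more contacts at 4 of 426 baits (0.939%, interval 0.366 to 2.39%), and 43.0% had any. Only 426 of 1096 annotated olfactory receptor genes and 38 of 320 vomeronasal receptor genes had a listed bait, so these shares leave out genes without any call. Vomeronasal receptors had 10 or more at 0 of 38 (upper bound 9.18%). Their bait fragments had a median GC content of 38.6% and 38.1%, and both families hold near-identical gene copies, at which reads can be hard to place. Housekeeping groups lay close to the background in this share. Cytosolic ribosomal protein genes had 10 or more contacts at 5 of 54 baits (9.26%) and proteasome subunits at 3 of 29 (10.3%). Respiratory chain and ATP synthase genes had them at 8 of 55 (14.5%). Polycomb complex genes, at 3 of 24 (12.5%), were also close in this share. Their median was 5.5 contacts per bait, compared with 2 over all listed baits. The lists of glycolysis enzymes, signalling genes of the Nodal, BMP and FGF pathways, immediate-early genes, synaptic adhesion and axon guidance genes, and feeder fibroblast markers had 6 to 19 baits each. Their shares ranged from 16.7 to 22.2%, and each interval included the share of all baits.

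**Figure D2:**
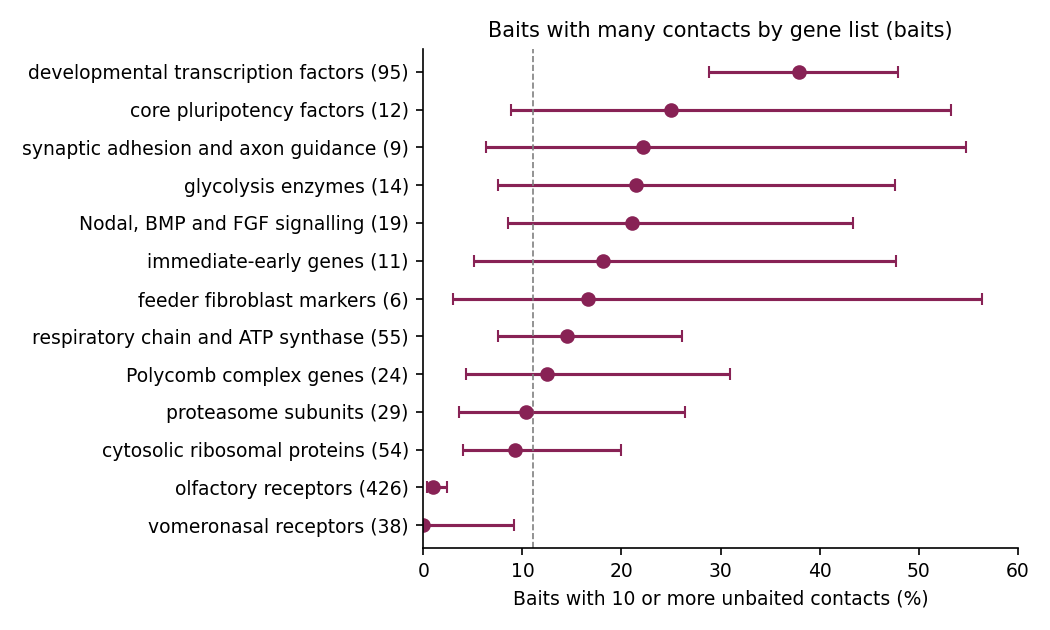
Share of listed baits with 10 or more unbaited contacts for each gene list, with the number of baits in parentheses and 95% Wilson intervals as bars. The dashed line is the share over all listed baits, 11.0%. Developmental transcription factors (37.9%) lay above the line and olfactory receptors (0.939%) and vomeronasal receptors (0%) below it, each with an interval that excluded it. With each stretch counted once, the developmental transcription factor share was 21.1%.

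The core pluripotency factors, which hold mESCs in the undifferentiated state, did not share one pattern. Of 15 genes in the list, 12 had a listed bait, 10 had an unbaited contact, and 3 had 10 or more. As shares of their listed baits these were 83.3% (interval 55.2 to 95.3%) with a contact and 25% (interval 8.89 to 53.2%) with 10 or more. Over all listed baits the shares were 75.0 and 11.0%, and each interval included the corresponding value. *Tbx3* had 22 contacts with a median distance of 749.7 kb, and *Klf2*, a Krüppel-like factor, 20 with a median of 41 kb. *Nanog*, a homeodomain factor, had 14, of which 5 were upstream and 9 downstream, none farther than 118.1 kb. Its best contact was the nearest downstream, 7.205 kb away, with 42 reads and a score of 16.48. The other end of that contact overlapped an exon of *Nanog* itself. *Sox2*, a partner of Oct4, had 3, all downstream and none nearer than 434.3 kb, with 5, 8 and 4 reads. *Pou5f1*, which encodes Oct4, had a single contact 365.8 kb away with 6 reads and a score of 6.41. Its other end was flanked by the baits of *Nrm* and *Dhx16*. The best bait-to-bait call of *Pou5f1* with a flanking bait had a score of 9.14. *Esrrb* had 4, *Tcfcp2l1* and *Klf5* had 3 each, and *Nr5a2* and *Sall4* had 1 each. The baits of *Klf4* and *Prdm14* were listed with no unbaited contact under 1 Mb. *Zfp42*, *Nr0b1* and *Zfx* had no listed bait.

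**Figure D3:**
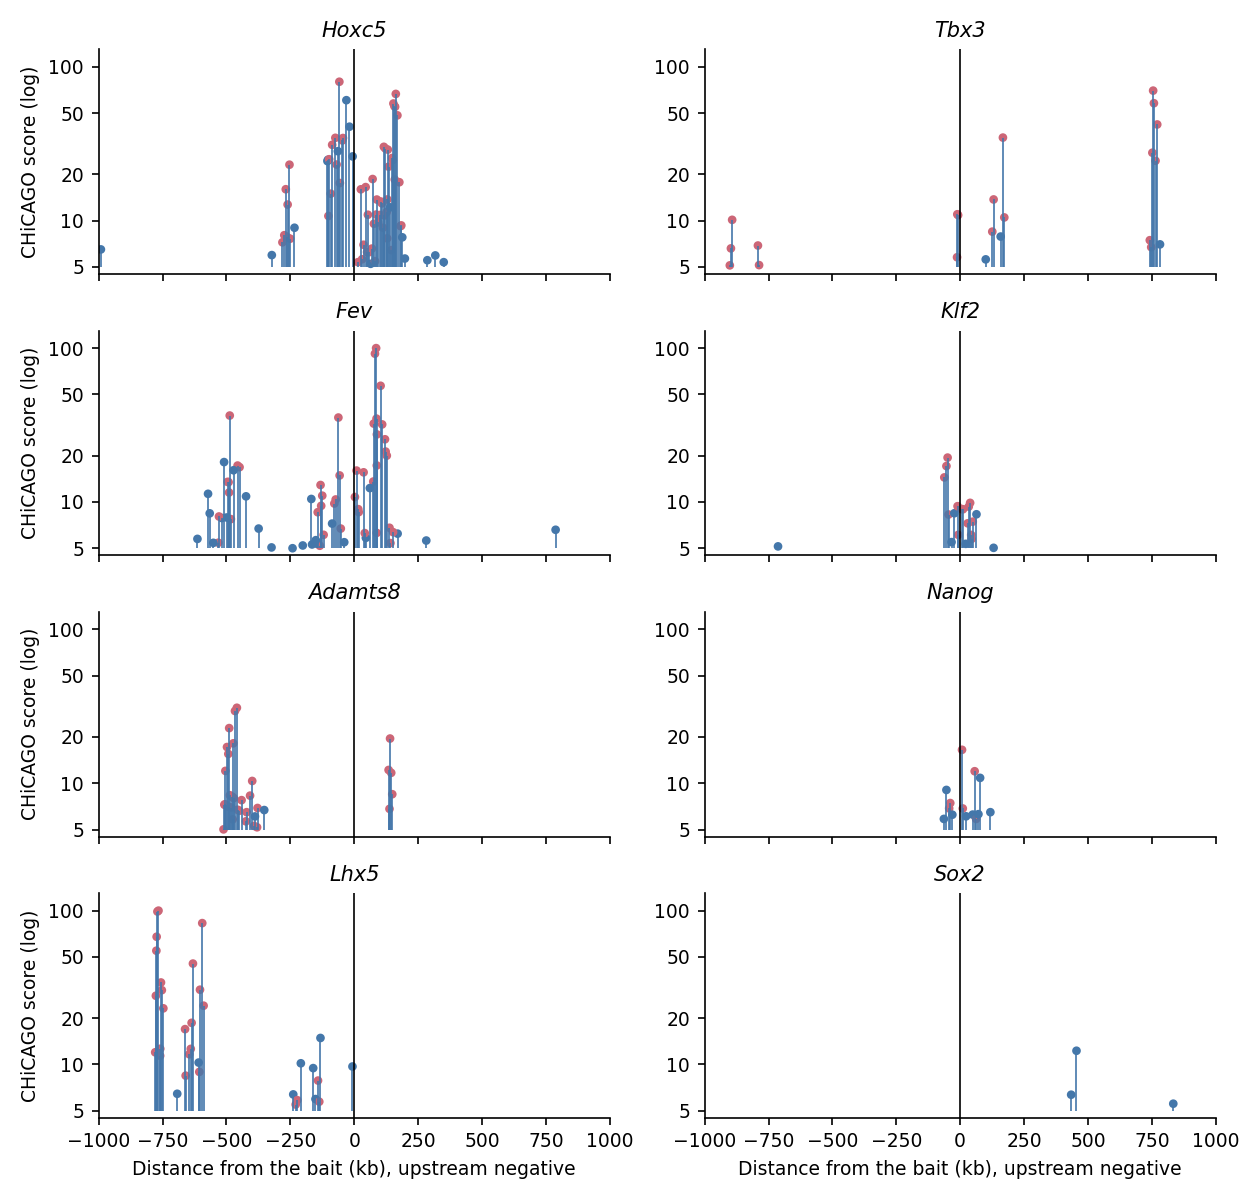
CHiCAGO score (log axis) of each unbaited contact against its distance from the bait in kb, for 8 promoters, with upstream drawn to the left except for *Tbx3*, whose bait has starts on both strands and is drawn by coordinate. Red points are contacts in stretches of adjacent fragments and blue points single fragments. *Hoxc5* and *Fev* had contacts on both sides, *Lhx5* on the upstream side alone, *Adamts8* mostly in 1 upstream block, and *Sox2* had 3 contacts.

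Contacts reached a median of 125.8 kb (interval 124.4 to 127 kb), with quartiles of 47.08 and 240.7 kb. Bait-to-bait contacts under 1 Mb reached farther, with a median of 146.2 kb (interval 144.3 to 148.3 kb, n = 28185 pairs, each counted once). The farthest contact of a bait lay at a median of 224.5 kb, and 1537 baits (12.6%) reached 500 kb or more. As a share of possible pairs, contacts fell from 5.69% below 20 kb to 1.74% at 100 to 200 kb and 0.0671% at 500 to 1000 kb. Read counts fell with distance too, from a median of 50 below 20 kb to 7 at 500 to 1000 kb, whereas the median score stayed between 6.05 and 6.85. Single contacts beyond 500 kb could still have many reads, such as the 91 of *Psmd8* at 515.3 kb. How uniquely the reads of that contact map was not tested.

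Among baits with 10 or more contacts, those with the largest median distances were *6430503K07Rik* (843.9 kb), *Neto2* (828.7 kb), *Cadm3* (817.8 kb), *Scarf2* (777.5 kb) and *Gm17697* (764.5 kb). *Neto2*, which encodes an auxiliary subunit of kainate receptors, had all 20 contacts upstream, and *Cadm3*, a neural cell adhesion gene, had all 17 downstream. The best contact of *6430503K07Rik* (968.2 kb, 18 reads, score 31.57) lay next to the bait of *Insm1*, a factor of neuroendocrine differentiation. That of *Scarf2*, a scavenger receptor gene (790.1 kb, 29 reads, score 41.63), was flanked by the baits of *Tbx1* and *4930588K23Rik*. In both, the distal fragment lay beside another promoter.

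Such positions were counted over all contacts. An other end directly next to another baited fragment was found in 14622 contacts (23.4%, interval 23.1 to 23.7%). Over possible pairs, weighted to the distances of the contacts, the share was 10.5%. The difference held in each distance class, from 16.1 against 9.45% below 20 kb to 22.4 against 7.78% at 500 to 1000 kb. The share rose with the score, from 21.9% at scores of 5 to 6 to 34.0% at 20 or more. For 66.1% of these contacts the bait also had a bait-to-bait call with the neighbouring baited fragment. That share was 67.8% for contacts within 2 fragments of a baited fragment and 70.5% within 5. It was not computed over possible pairs. Within 5 fragments of another baited fragment lay 60.4% of contacts, compared with 36.8% of possible pairs at the same distances. An annotated transcription start was overlapped by 10.9% of the contacted fragments.

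*Lhx5* and *Tbx3* gave such a case. *Lhx5*, a LIM-homeodomain factor, had 33 contacts, all upstream, and its best (chr5:120115871-120119465, 72 reads, score 99.98, 765.9 kb away) was the fragment directly next to the *Tbx3* bait. *Tbx3* in turn had 8 contacts at 742 to 781.9 kb, with scores of 6.72 to 69.98, around the *Lhx5* bait. The direct call between both baits had a score of 170.8. These 8 contacts had 16 to 83 reads.

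Relative to transcription, contacts were nearly balanced. For the 13562 baits whose annotated starts all lay on one strand, 47.1% of 50653 contacts were upstream (interval 46.6 to 47.5%), compared with 50.0% of their possible pairs. The share varied only between 46.3 and 47.9% over the distance classes. Contacts within the body of a gene that starts on the bait, 7.32% of all contacts, lie downstream by definition.

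Single promoters were less even. For baits with 10 or more contacts, 74.9% of contacts lay on the side of the bait with more of them, a share that cannot fall below 50% by construction. All contacts lay on one side for 259 of these 1793 baits (14.4%), and 401 (22.4%) had between 40 and 60% on the left. Among one-sided baits with starts on one strand, contacts were upstream for 94 of 220 (42.7%, interval 36.4 to 49.3%). The one-sided baits with the most contacts were *Efnb1* and *AC159335.1* with 38 each, *Krt78* with 36, *Lhx5* with 33 and *AL844481.1* with 32. *Efnb1*, an X-linked ephrin ligand gene, had all 38 downstream, at a median of 410.4 kb with 6 to 18 reads. Those of *Krt78*, a keratin gene, were all downstream at a median of 503.2 kb and passed over up to 24 baited fragments.

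Contacts also formed stretches of adjacent fragments. Of all contacts, 35.6% (interval 35.2 to 35.9%) had a neighbouring fragment contacted by the same bait. There were 8759 such stretches on 4154 baits, most of them, 6029, a pair of fragments with a median length of 8.41 kb. Stretches of 10 or more fragments numbered 26, with a median length of 41.2 kb. The longest by number of fragments belonged to *Adamts8*, a secreted metalloprotease gene: 20 fragments over 73.97 kb (chr9:30238411-30312375), a median of 483.9 kb upstream. The bait had 34 contacts in all, and 31 of them fell within Hi-C pairs. Next were *2410015M20Rik* with 16 fragments over 102 kb, *Itgb1bp1* with 14 over 66.86 kb, *Car2*, which encodes a carbonic anhydrase, with 13 over 47.7 kb, and *Psen2*, which encodes presenilin 2, with 12 over 59.61 kb. Single fragments and stretches differed in the other readout: 7.84% of contacts to single fragments lay within Hi-C pairs, 17.1% of those in pairs of fragments, and 41.0% of those in stretches of 5 or more (interval 39.2 to 42.8%). Median scores rose in the same order, from 6.07 to 9.06. Adjacent fragments can fall within the same pair of bins, so the fragments of a stretch are not separate cases.

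Most contacts spanned other baited fragments. At least 1 baited fragment lay between bait and other end in 71.7% of contacts (interval 71.3 to 72.0%), 5 or more in 23.3% and 10 or more in 7.18%. In 15.4% of contacts (interval 15.1 to 15.6%) the bait was the baited fragment nearest to the other end. Captured fragments without any call are not counted as baited. The shares that pass over baits can thus only be too low, and the nearest-bait share too high. These shares were not computed over possible pairs at the same distances. The part of distance and of bait density in them was not tested. Passing grew with distance, from 10.3% below 20 kb to 86.2% at 100 to 200 kb and 92.2% at 500 to 1000 kb. Bait-to-bait pairs passed over another baited fragment in 81.7% of cases. The contacts with a score of at least 10 that passed over the most were in the keratin gene cluster of chromosome 11, where baits are dense. *Krt34* passed over 52 in a contact of 679.5 kb, and *Krt33a*, *Krt23*, *Krtap3-3* and *Krtap17-1*, in the same cluster, over 48, 47, 46 and 44. These contacts had 11 to 14 reads. They are views of one region and not separate cases.

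The fragments most widely shared lay in gene-dense regions. Of the 34705 contacted fragments, 65.7% were contacted by 1 bait. The most shared (chr17:35292114-35297297, within *Prrc2a* in the major histocompatibility complex class III region) was contacted by 29 baits, among them *Tnf*, *Aif1*, *Vars* and *Msh5*. Next was a fragment within *Polr2a*, the gene of the largest RNA polymerase II subunit (chr11:69547556-69553415), with 27 baits. Both were singled out after their values were seen.

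The highest scores belonged to baits with 1 to 19 contacts. The best contact of *Rps14*, a ribosomal protein gene, lay 51.49 kb away in an intron of *Ndst1* and had 340 reads and a score of 346.2. That of *Cdkn2c*, a cell-cycle inhibitor gene, at 315.2 kb with 135 reads and a score of 170.6, overlapped an exon of *Dmrta2* next to the bait of *3010003L10Rik*. *Psmd8*, a proteasome subunit gene, had 2 contacts, and its best reached 515.3 kb with 91 reads and a score of 156.5. That other end overlapped an exon of *Catsperg2*. *Olfr11* and *Vmn2r114* completed the 5, each with a best score of 117.8. The *Olfr11* contact lay outside annotated genes and that of *Vmn2r114* in an exon of *Vmn2r117*. Both baits belong to families of similar gene copies. How uniquely reads map was not tested for any of these 5 contacts. All 5 contacts fell within Hi-C pairs, as did 69.7% of all contacts with a score of 20 or more.

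The contacted fragments differed from the other unbaited fragments within 1 Mb of a bait. They were longer, with a median of 3810 bp against 2154 bp, and richer in GC, with 45.9 against 41.2%. An exon was overlapped by 42.8% of them and by 14.9% of uncontacted fragments, and 36.0% against 56.0% lay outside annotated genes. These shares were not weighted for length. A longer fragment has more room for any sequence, so motif shares were set against uncontacted fragments weighted to the same length and GC classes. Neither the gene shares nor the motif shares were weighted for distance to a bait, and contacts were listed more often near baits. The part of distance in these differences was not tested. The CTCF consensus, 13 bases long with several ambiguous positions and searched on both strands, was present in 5.39% of contacted fragments (1872 of 34705, interval 5.16 to 5.64%). The share was 0.958% in uncontacted fragments, 1.38% after weighting to the same lengths and 2.50% after weighting to the same lengths and GC. Among fragments of 3 to 5 kb, 4.68% of contacted and 1.12% of uncontacted fragments had a match.

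Other motifs of mESC factors differed less. The Esrrb motif TCAAGGTCA was found in 13.0% of contacted fragments and in 11.4% of uncontacted fragments at the same lengths and GC. For the Klf motif GGGTGTGGC the shares were 9.57 and 9.33%. The Oct4-Sox2 composite motif was found in 0.271 and 0.303%, and its interval in contacted fragments (0.221 to 0.331%) included the second value. These are matches of letters within fragments of several kb, not bound sites.

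The CTCF consensus had a preferred direction. In contacts whose other end carried it on one strand only, it pointed towards the bait in 2859 of 4027 (71.0%, interval 69.6 to 72.4%). With each fragment counted once, at its highest-scoring contact, the share was 75.7% (interval 73.7 to 77.6%, n = 1834). Below 20 kb it was 50.5% (interval 44.7 to 56.3%), and it rose from 68.8% at 20 to 50 kb to 76.3% at 500 to 1000 kb. It also rose with the score, from 66.3% at 5 to 6 to 82.7% at 20 or more (62 of 75, interval 72.6 to 89.6%). The Esrrb and Klf motifs, counted the same way, pointed towards the bait in 48.5% and 50.0%. Where the bait carried the consensus on one strand as well, it pointed to the other end in 204 contacts and away from it in 102. The consensus of the other end faced the bait in 75.5% of the former (interval 69.2 to 80.9%) and 70.6% of the latter (interval 61.1 to 78.6%), intervals that overlap. The listed sequences, chosen by score, follow the same majority, with the *Gapdh* contact as the exception.

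**Figure D4:**
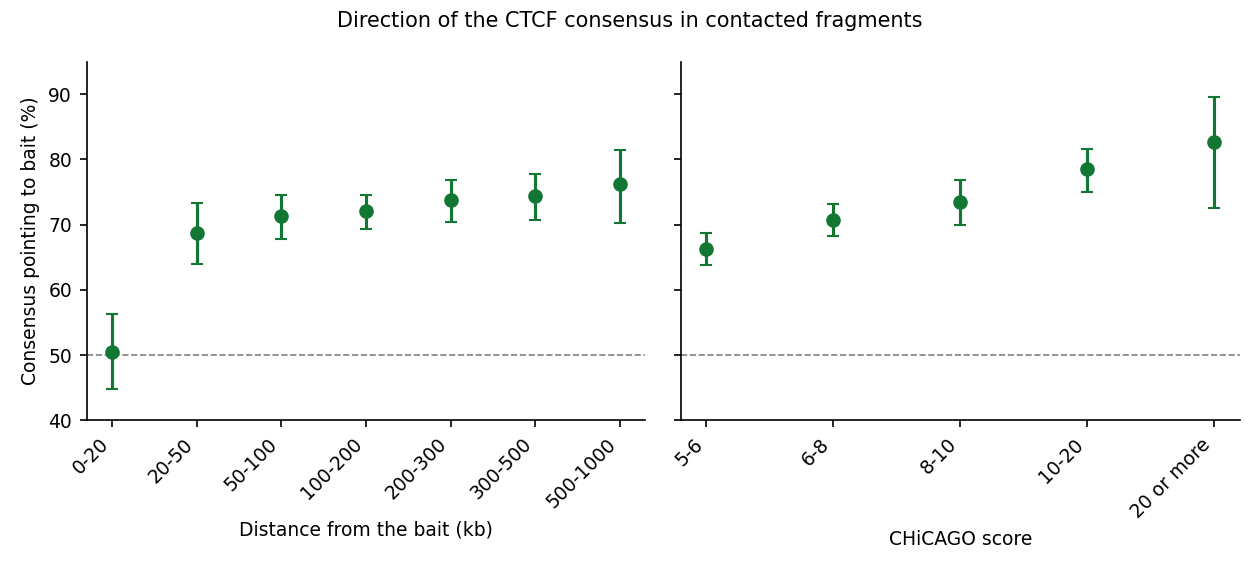
Share of contacts whose other end carries the CTCF consensus on one strand, pointing towards the bait, by distance from the bait (left) and by CHiCAGO score (right), with 95% Wilson intervals as bars. The vertical axis starts at 40%, and the dashed line marks 50%. The share was 50.5% below 20 kb, 68.8 to 76.3% in the farther classes, and 66.3 to 82.7% over the score classes.

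Finally, contacts were set against the Hi-C library, made without capture. An interacting pair of Hi-C bins held both midpoints for 13.4% (interval 13.1 to 13.6%) of unbaited contacts and for 6.50% (interval 6.22 to 6.79%) of bait-to-bait pairs under 1 Mb, each counted once. Adjacent unbaited fragments can fall within the same pair of bins. With each stretch counted once, the unbaited share was 10.2% (interval 9.96 to 10.5%). The share of possible pairs within Hi-C pairs was not computed. Below 20 kb, with every unbaited fragment counted, the shares of unbaited contacts and bait-to-bait pairs were 10.2 and 8.28%, with intervals that overlapped slightly. In each of the 6 classes from 20 kb the unbaited contacts were higher, for example 13.2 against 6.16% at 100 to 200 kb and 18.7 against 5.07% at 500 to 1000 kb. The share rose with the score, from 7.22% at 5 to 6 to 69.7% at 20 or more (interval 66.9 to 72.4%).

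In the GM12878 human lymphoblastoid line, with 3 replicates, other baits and another genome, the same rule gave 64490 contacts on 10878 baits. Their median was also 3 per bait, their median distance 171 kb against 125.8 kb in mESCs, and 40.3% lay in stretches of adjacent fragments against 35.6%. Cell type, species, depth and capture design cannot be told apart in this comparison.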

How the data were processed

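Promoter CHi-C of 2 mESC replicates and 3 GM12878 replicates and Hi-C of 1 mESC library were used. The authors mapped reads to mm9 or hg19 with HiCUP and Bowtie (1.1.0 per the labels) and ran CHiCAGO on all replicates of a cell type jointly. The deposited read count of a contact was averaged by the authors, using library size factors as weights, and then rounded, so it is no raw count. The deposited score is the CHiCAGO score, derived by the authors from weighted p-values, and the lists hold scores of at least 5. For Hi-C, the authors called 25-kb bin pairs with HOMER (4.7 per the labels). The deposited Hi-C count gives read pairs per bin pair, with an expected number as a score from HOMER, and the deposited FDR is an adjusted p-value. The total depth of each library was not analysed here, and the read count of each contact stands for its depth.

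The mm9 sequence was digested in silico with *Hin*dIII (823373 fragments), and 100% of contact fragments matched. Of 35433 transcript names on baits, 35325 were found in GENCODE vM1. Distances run between fragment midpoints. Baited fragments are the 17157 listed as a bait or under a bait name. Captured fragments without any call count as unbaited, also among possible pairs and uncontacted fragments. Shares of contacts beside a baited fragment can therefore be too low. Possible pairs join each listed bait to every unbaited fragment under 1 Mb. A stretch holds fragments adjacent in the digest and contacted by one bait. Motifs were searched as exact consensus matches, and weighting used classes of fragment length and GC. Sites on chromosomes 8 and 18 were left out of the printed sequences.

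The genes named are the 10 baits with the most contacts, and 5 each by longest stretch, best score, median distance (10 or more contacts), one-sided contacts, and baited fragments passed (score at least 10), plus the core pluripotency factors. Members and lists were chosen with earlier results of these data known. Computations used Python 3.11.15, numpy 2.4.6, pandas 2.3.3 and scipy 1.17.1, and the functions were tested on simulated data. Alternatives changed the score, read count, distance, list, strand rule, unit counted and Hi-C threshold.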

Additional observations from a re-analysis of the deposited data

How the results depend on the processing

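No paired analysis was possible because the deposited list joins the replicates and no result comes from a replicate test. Of 74 alternative values, 30 stayed within the interval of the reported value (for the number of contacts, within 1.5 times), and 44 moved. With a score of at least 10, contacts numbered 8052, with a median of 1 per bait and 89.94 kb. Shares were then 46.5% upstream, 35.0% in stretches, 68.3% passing over a bait, 7.73% inside a gene of the bait, 35.5% in Hi-C pairs, 27.7% beside a baited fragment, 8.23% of fragments with the CTCF consensus, and 78.9% pointing to the bait. With 10 or more reads, the median was 2 per bait and 82.67 kb, with 74.3% on the larger side, 39.0% in stretches, 64.5% passing, 9.52% inside a gene and 15.6% in Hi-C pairs. From 20 kb on, the values were 155.2 kb, 77.1% on the larger side, 34.9% in stretches, 82.5% passing, 4.05% inside a gene and 13.9% in Hi-C pairs. Under 500 kb they were 116.7 kb, 36.0% in stretches and 70.6% passing. Without other ends on annotated starts, the median was 2 per bait and 128.8 kb, with 70.6% passing. With each stretch counted once, the median was 2 per bait and 130.9 kb, with 47.7% upstream, 10.2% in Hi-C pairs and 25.7% beside a baited fragment, and 21.1% of developmental transcription factor baits had 10 or more, against 7.24% of all listed baits. Means of per-bait shares gave 36.9% in stretches and 72.9% passing. Allowing 1 uncalled fragment inside a stretch gave 48.6%. The strand of the first named gene gave 47.6% upstream, and baits with 20 or more contacts had 72.6% on the larger side. The Hi-C share was 11.1% at FDR under 0.01 and 32.6% with every listed pair. Fragments of 2 to 5 kb had the CTCF consensus in 4.30%. The browser list gave the same 62525 contacts. The share with the consensus pointing to the bait stayed between 70.7 and 78.9%. The alternatives for neighbouring baits and for developmental transcription factors were chosen after seeing the data. Each setting changes which contacts are counted, and the cause was not tested further. Values for single promoters rest on a rounded mean read count, often under 20 reads at long range.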
